A study of Mus musculus with 6 samples.

Results

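The Wnt signalling genes examined here were the probe sets annotated to a single symbol among the Wnt ligands, the Frizzled (Fzd) receptors, the secreted Sfrp and Dkk inhibitors, Frzb, the co-receptors Lrp5 and Lrp6, and Axin2 and Lef1. This gave 44 probe sets of 43 genes out of 28815 on the array. All 44 had a value on each of the 6 arrays, and no filter on low values was applied. The tissue was cervical spinal cord from mouse embryos at embryonic day 11.5, dissected without dorsal cord or floor plate. Each genotype had 3 arrays, lettered A, B and C: one set carries the label Nkx2.9 knockout, the other wild type. The sources used here give neither the strain nor the design of the Nkx2.9 allele, nor whether an array held 1 embryo or a pool. The p-values below therefore reflect the spread among these arrays, which may be technical in part. By the sex markers given below, knockout A did not come from the same embryo or pool as knockout B or C. The stated purpose was to find effectors downstream of Nkx2.9, a homeodomain factor of ventral cord progenitors, in spinal accessory motor neurons.

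Wnt proteins are secreted, lipid-modified ligands that bind Frizzled receptors. With Lrp5 or Lrp6 they stabilise beta-catenin, which joins Tcf and Lef factors on target genes such as Axin2. Some ligands, Wnt5a among them, also act without beta-catenin, through Ror, Ryk and planar polarity proteins, on cell polarity and axon growth. In the embryonic cord Wnt1 and Wnt3a mark the roof plate and dorsal midline, while Wnt7a, Wnt7b and Wnt5a are made more ventrally. Sfrp proteins and Frzb bind Wnt ligands, and Dkk proteins such as Dkk1 bind Lrp5 and Lrp6.

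Each deposited value was a log2 value with the median of its probe set over the 6 arrays at 0. A value of 0.5 therefore meant above that probe set's own median, and no level of a gene could be read. For the same reason it could not be seen whether a marker of the labelled tissue was present or absent. Array medians lay between -0.007 and 0.009. Nkx2-9 itself was not lower on the arrays labelled knockout (log2 difference 0.18, SE 0.11, adjusted p = 0.812 in limma), and where its probes lie relative to the deletion was not known, so every direction below rests on the labels. Knockout B and knockout C had high values of Xist, the X-inactivation RNA (4.56 and 4.91), and low values of the Y-linked Eif2s3y (-3.04 and -3.19). On knockout A and the 3 wild-type arrays Xist lay between -0.25 and 0.11. By these markers 2 of the 3 arrays labelled knockout were female and the other 4 arrays male, so sex differed between the groups along with genotype, and a knockout minus wild type difference holds both.

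Upstream sequences of 28 of the 43 genes were found in the RefSeq promoter table (GRCm38.p6), with 34 windows of 300 bases around start sites. Dkk3, Dkk4, Fzd10os, Fzd2, Fzd3, Fzd6, Fzd8, Lrp5, Lrp6, Sfrp1, Sfrp4, Wnt10a, Wnt5a, Wnt7b and Wnt8a had no entry. The core letters bound by Tcf and Lef factors, CTTTGA, were searched on both strands (TCAAAG on the other). They stood in 6 of the 34 windows (17.6%), against 16.0% of all 32851 windows in the table, so these genes held the letters about as often as genes in general. The windows belonged to Dkk1, Frzb, Fzd1, Lef1, Wnt11 and Wnt5b. Shown are 100 bases upstream for Wnt5b, a ligand described below, Lef1, which differed more than Axin2, and Dkk1, an inhibitor that is itself a known target of the pathway. Capitals mark the searched letters, and a match is a description of sequence only.
Wnt5b (chr6:119449387-119449486, minus strand, bases -100 to -1 of 1 of its 3 starts): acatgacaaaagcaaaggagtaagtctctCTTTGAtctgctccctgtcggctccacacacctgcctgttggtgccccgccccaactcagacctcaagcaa
Lef1 (chr3:131156094-131156193, plus strand, bases -200 to -101 of 1 of its 4 starts): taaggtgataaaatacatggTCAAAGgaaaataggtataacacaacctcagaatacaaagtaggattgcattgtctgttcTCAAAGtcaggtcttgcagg
Dkk1 (chr19:30549597-30549696, minus strand, bases -200 to -101): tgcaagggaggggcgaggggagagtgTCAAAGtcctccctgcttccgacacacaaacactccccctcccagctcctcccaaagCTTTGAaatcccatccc
In Wnt5b the letters began 71 bases before the start (-71). In Lef1 and Dkk1 a pair of matches lay at -180 and -120, and at -174 and -117. The deposited values do not separate transcripts from the different starts of Wnt5b or Lef1.

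Wnt5a was the Wnt signalling gene that differed most between the groups, and it was higher on the arrays labelled knockout. Sfrp1, which binds Wnt ligands, Wnt5b, the closest relative of Wnt5a, and the co-receptor gene Lrp6 were also higher there at an unadjusted p under 0.05. None of the 44 probe sets passed the threshold of an adjusted p under 0.05 in limma, a linear model with variances shared across probe sets, and the lowest adjusted p was 0.812. Nor did any of all 28815 (0%). Without knockout A 5 probe sets outside the Wnt genes passed. The knockout arrays left there, B and C, both had high Xist, so that fit could not tell the label from sex. At an unadjusted p under 0.05 there were 4 of the 44 (9.09%), against 5.57% of all probe sets (1605). All 4 were higher in the arrays labelled knockout, against 3.07% of all probe sets that were higher at that threshold.

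Wnt5a stood at 0.86, 0.40 and 0.10 on knockout A to C and at -0.10, -0.79 and -0.21 on wild-type A to C. Every array labelled knockout lay above every wild-type array, with 0.20 between the lowest of one group and the highest of the other. The means were 0.45 ± 0.39 and -0.36 ± 0.37 (SD, n = 3 each), so the spread inside each group was wide, and the range over arrays, 1.65, was the widest of the 44. The log2 difference was 0.82 (SE 0.25), 1.76-fold higher, with a 95% interval from 0.22 to 1.41 (adjusted p = 0.812 in limma). Leaving out 1 array at a time gave 0.61 without knockout A and also without wild-type B, and up to 0.99 without knockout C. Adding a model term that marks knockout B and C by their high Xist, so that knockout A alone is set against the wild type, gave 1.23 (SE 0.29, adjusted p = 0.792 in limma).

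Sfrp1 stood at 0.29, 0.02 and 0.19 on knockout A to C and at -0.02, -0.18 and -0.21 on wild-type A to C. The groups did not overlap, with knockout B closest to the wild type. The log2 difference was 0.30 (SE 0.09, 1.23-fold, 95% interval 0.09 to 0.51, adjusted p = 0.812 in limma). It lay between 0.24 and 0.38 with single arrays left out and at 0.43 with the Xist term.

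Lrp6 had the tightest values of these 4 genes. It stood at 0.05, 0.11 and 0.20 on knockout A to C and at -0.09, -0.05 and -0.06 on wild-type A to C, and the groups did not overlap. The log2 difference was 0.18 (SE 0.05, 1.14-fold, 95% interval 0.06 to 0.31, adjusted p = 0.812 in limma). With the Xist term it was 0.12 and its unadjusted p, 0.137 in limma, no longer lay under 0.05. Its partner Lrp5 overlapped between the groups, at -0.07, 0.06 and 0.21 against -0.11, -0.06 and 0.16, with a difference of 0.07 (SE 0.10). This turned to -0.065 with the Xist term, and it was 0.0015 without knockout C.

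Wnt5b stood at 0.00, 0.12 and 0.26 on knockout A to C and at -0.13, -0.11 and 0.00 on wild-type A to C. Only 0.0036 separated knockout A from wild-type C, so the groups were apart by less than any SD. The log2 difference was 0.21 (SE 0.08, 1.16-fold, 95% interval 0.02 to 0.40, adjusted p = 0.812 in limma). The higher values were those of knockout B and C, the arrays with high Xist, and with the Xist term the difference was 0.082 (unadjusted p = 0.395 in limma). Of these 4 genes, Wnt5b was the one whose unadjusted p went above 0.05 when single arrays were left out. In limma it was 0.0964 without wild-type A, 0.0674 without knockout B, 0.0851 without wild-type B and 0.0784 without knockout C.

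**Figure D1:**
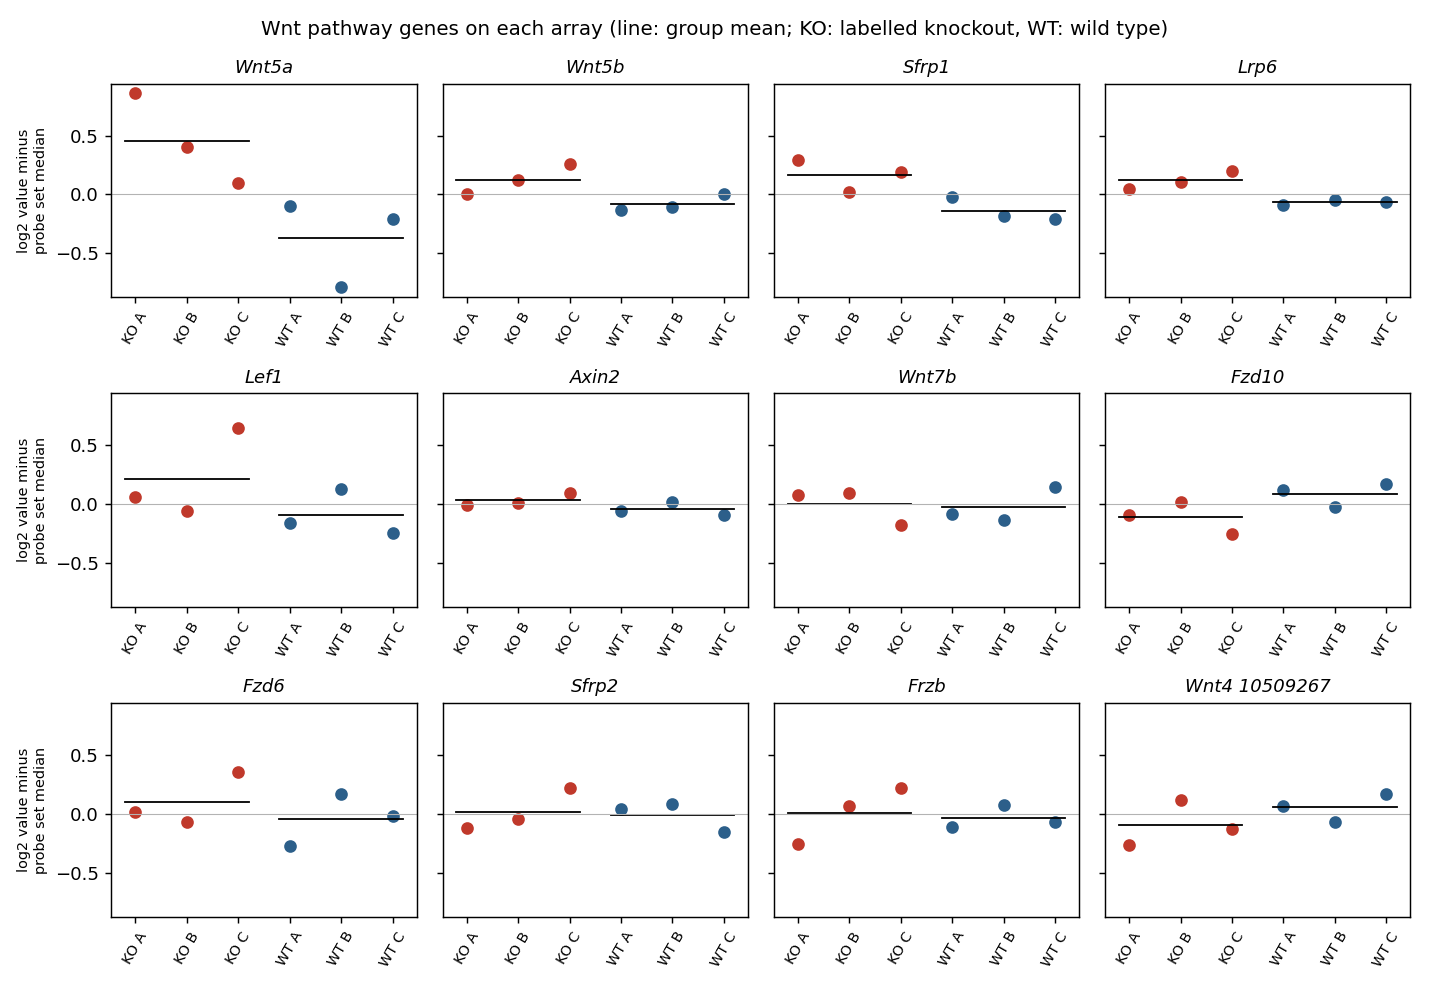
Log2 value minus the probe set's median over the arrays (vertical axis) on each of the 6 arrays (horizontal axis) for 12 probe sets, with knockout arrays in red, wild type in blue and lines at the group means. Wnt5a spans 1.65 from 0.86 on knockout A to -0.79 on wild-type B, Lef1 stands at 0.65 on knockout C alone, and Axin2 stays within 0.19.

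All 19 mouse Wnt ligand genes were on the array, in 20 probe sets because Wnt4 had 2. Of the 20, 13 had a higher and 7 a lower mean in the labelled knockout. Their median log2 difference was 0.04, against 0.01 over all probe sets, of which 55.0% lay above 0. The median was -0.0012 without knockout B. Apart from Wnt5a and Wnt5b, no ligand differed by more than 0.14 on the log2 scale. Wnt5a and Wnt5b were the ligands whose groups did not overlap, 2 of 20 probe sets, a share near the 10.9% of all complete probe sets.

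The roof plate ligand Wnt3a stood at 0.08, 0.00 and 0.00 on knockout A to C and at -0.05, -0.04 and 0.02 on wild-type A to C, a difference of 0.05 (SE 0.05). Wnt1, the other roof plate ligand, stood at 0.00, -0.02 and 0.14 against -0.02, 0.00 and 0.00, also a difference of 0.05 (SE 0.05), which was -0.001 without knockout C. Both overlapped between the groups. The 14 measured markers of roof plate and dorsal cord had a median difference of -0.04 (4 higher, 10 lower), with differences between -0.42 and 0.20. They varied widely between arrays of the same label, with a median SD within groups of 0.233, against 0.083 over all probe sets.

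Wnt7a stood at 0.01, 0.17 and -0.01 on knockout A to C and at -0.05, -0.03 and 0.09 on wild-type A to C, a difference of 0.05 (SE 0.07). Wnt7b, a relative that also acts on vessels growing into the cord, stood at 0.08, 0.10 and -0.18 against -0.08, -0.13 and 0.15, a difference of 0.02 (SE 0.11). Both genes overlapped between the groups, and both turned sign with single arrays left out, within -0.031 and 0.11.

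The probe sets of Wnt4, a ligand that guides commissural axons and patterns the kidney and gonad, gave opposite signs. Probe set 10509267, with 7 annotated transcripts, stood at -0.26, 0.12 and -0.13 on knockout A to C and at 0.07, -0.07 and 0.17 on wild-type A to C, a difference of -0.14 (SE 0.11). Probe set 10509273, with 1 transcript, stood at 0.01, 0.14 and -0.01 against -0.08, -0.04 and 0.13, a difference of 0.04 (SE 0.07). In both, knockout B was the highest array labelled knockout and the groups overlapped, so Wnt4 showed no direction common to its probes.

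The other 12 ligands, Wnt2, Wnt2b, Wnt3, Wnt6, Wnt8a, Wnt8b, Wnt9a, Wnt9b, Wnt10a, Wnt10b, Wnt11 and Wnt16, had differences between -0.07 and 0.07, 6 higher and 6 lower. Their median SD within groups was 0.058, against 0.083 over all probe sets. Wnt16 moved least of the 44, with a range of 0.03 over the 6 arrays. Several ligands are neighbours in the genome, and these pairs were Wnt6 and Wnt10a (0.06 and -0.02), Wnt3a and Wnt9a (0.05 and 0.07), Wnt9b and Wnt3 (0.04 and -0.02) and Wnt10b and Wnt1 (0.02 and 0.05). None of these pairs held Wnt5a or Wnt5b.

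**Figure D2:**
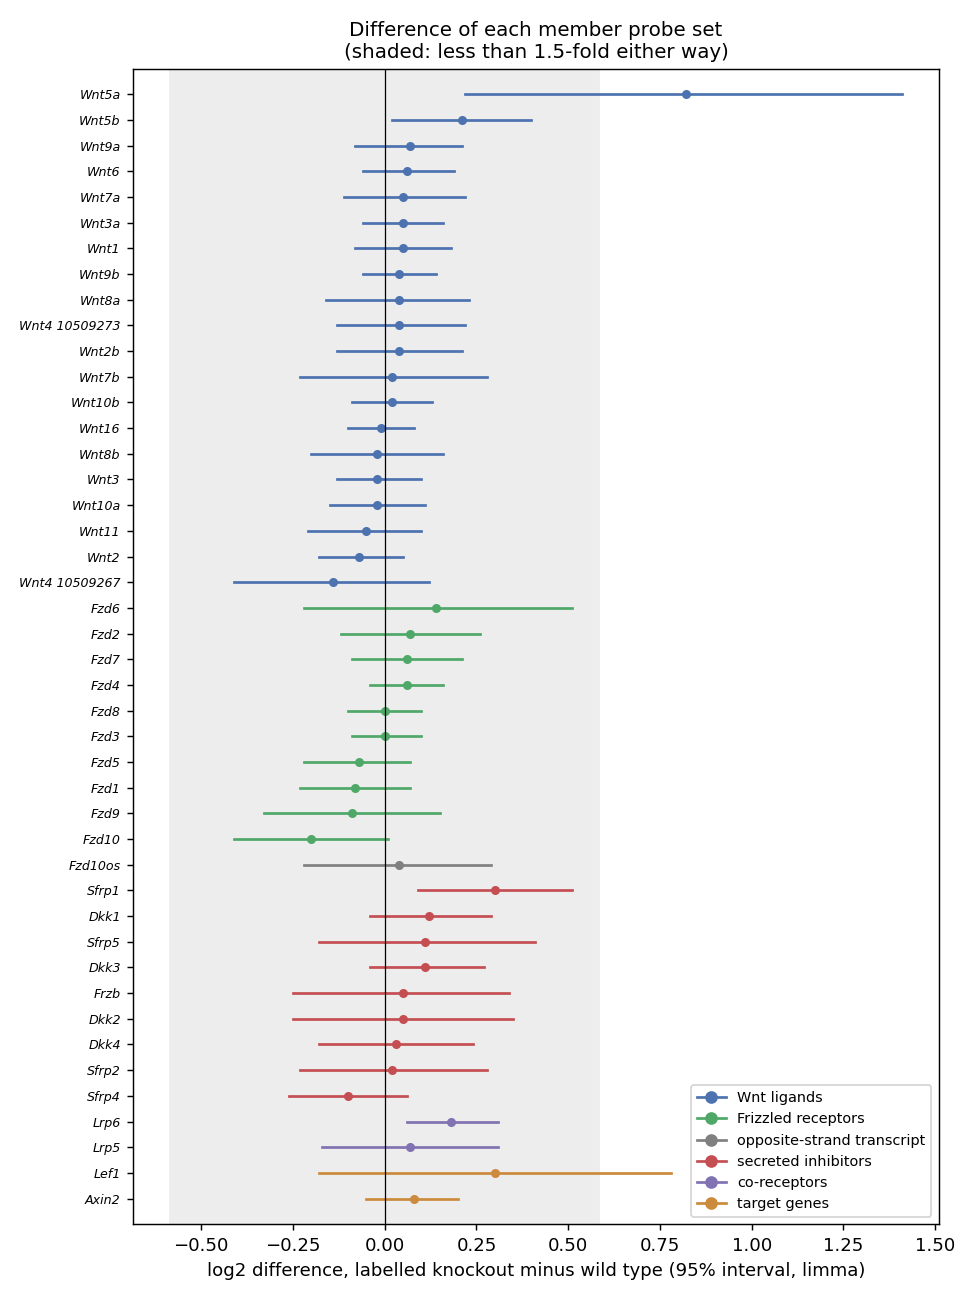
Log2 difference, labelled knockout minus wild type (horizontal axis), with its 95% interval from limma, for each of the 44 probe sets (vertical axis), coloured by class, with the range under 1.5-fold shaded. The intervals of 42 lie inside the shaded range, and those of Wnt5a (0.22 to 1.41) and Lef1 (-0.18 to 0.78) reach past it.

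The Frizzled genes encode the receptors of these ligands, and all 10 were measured. Their median difference was 0.00, with 6 higher and 4 lower, none at an unadjusted p under 0.05 in limma, and the 10 intervals all lay inside 1.5-fold in either direction. Fzd10, a dorsal cord receptor, had the largest difference downwards. It stood at -0.09, 0.02 and -0.25 on knockout A to C and at 0.12, -0.02 and 0.17 on wild-type A to C, a difference of -0.20 (SE 0.09, 95% interval -0.41 to 0.01, adjusted p = 0.812 in limma). The groups overlapped through knockout B and wild-type B, and without either array the difference was -0.26, while without knockout C it was -0.13. Fzd10os, transcribed next to Fzd10 from the opposite strand and not itself a receptor gene, stood at -0.14, -0.02 and 0.19 against 0.02, -0.18 and 0.08 (difference 0.04, SE 0.10).

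Fzd6, a receptor of planar polarity, had the largest difference upwards among the Frizzled genes. It stood at 0.02, -0.07 and 0.36 on knockout A to C and at -0.27, 0.17 and -0.02 on wild-type A to C, a difference of 0.14 (SE 0.15), which was 0.018 without knockout C. The other 8 lay between -0.09 and 0.07. Fzd4, the norrin and vessel receptor, had groups that did not overlap, by 0.00041, with a difference of 0.06 (SE 0.04). Across the 44 probe sets 5 had groups that did not overlap (11.4%), all higher in the arrays labelled knockout, against 10.9% of all complete probe sets.

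The secreted inhibitors comprised Sfrp1, Sfrp2, Sfrp4, Sfrp5 and Frzb, which bind Wnt ligands, and Dkk1 to Dkk4. Of these 9, 8 were higher and 1 lower, with a median difference of 0.05. Only Sfrp1 had an unadjusted p under 0.05 in limma. Without knockout C the median was -0.038 and without knockout B 0.085, so its direction did not hold without knockout C. With the Xist term it was -0.08.

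Sfrp2, a progenitor gene of the cord, stood at -0.12, -0.04 and 0.22 on knockout A to C and at 0.04, 0.09 and -0.15 on wild-type A to C. The groups overlapped and the difference was 0.02 (SE 0.11). Frzb stood at -0.25, 0.07 and 0.22 against -0.11, 0.08 and -0.07, a difference of 0.05 (SE 0.12). In both genes knockout C was the highest array, and without it the differences were -0.074 and -0.054. Sfrp4 was the only inhibitor with a lower mean, at -0.13, 0.04 and -0.07 on knockout A, B and C against 0.14, 0.03 and -0.03, a difference of -0.10 (SE 0.07). Sfrp5 and the 4 Dkk genes had differences between 0.03 and 0.12. Dkk1 stood at -0.04, 0.15 and 0.16 on knockout A to C and at -0.09, 0.01 and -0.01 on wild-type A to C, and with the Xist term its difference was -0.0041.

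Axin2 and Lef1 are switched on by beta-catenin in many tissues and serve as readouts of the pathway. Axin2, which feeds back to break beta-catenin down, stood at -0.01, 0.01 and 0.10 on knockout A to C and at -0.06, 0.02 and -0.09 on wild-type A to C. The groups overlapped and the difference was 0.08 (SE 0.05, 95% interval -0.05 to 0.20, adjusted p = 0.814 in limma). Lef1 stood at 0.06, -0.06 and 0.65 on knockout A to C and at -0.16, 0.13 and -0.24 on wild-type A to C. Knockout C stood apart, knockout B lay below wild-type B, and the difference was 0.30 (SE 0.20, 95% interval -0.18 to 0.78, adjusted p = 0.812 in limma). Without knockout C the difference of Lef1 was 0.086.

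**Figure D3:**
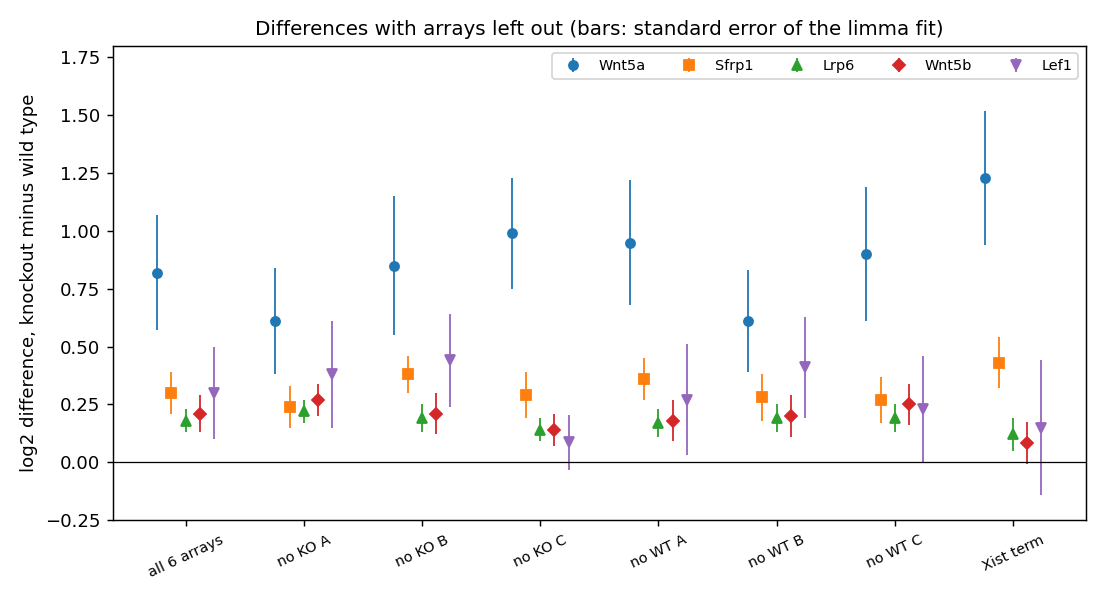
Log2 difference, labelled knockout minus wild type (vertical axis), for 5 genes with all 6 arrays, with each array left out and with a term for high Xist (horizontal axis); bars are the standard error from limma. Wnt5a lies between 0.61 and 1.23, Sfrp1 between 0.24 and 0.43, and Lef1 is at 0.086 without knockout C.

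Single arrays set much of the variation. Knockout C was the highest array for 17 of the 44 probe sets (38.6%), against 27.1% of all probe sets, and for 6 of the 9 inhibitors, both co-receptors and both target genes. It also had the highest medians of the mesenchyme and vessel marker lists, but not of the erythroid list (0.01, against 0.18 on wild-type C). The median of the 12 mesenchyme and sclerotome markers was 0.37 on knockout C and between -0.08 and 0.12 on the other arrays. On knockout C 11 of the 12 were highest, Twist1 at 2.32 and Prrx1 at 1.70 among them, while Dcn was at -0.24. Wild-type B also had high values of some, with Lum at 1.66 and Twist1 at 0.86. The median of the 10 endothelium and pericyte markers was 0.47 on knockout C and between -0.14 and 0.13 elsewhere. Of these, 8 were highest on knockout C, the vessel receptor gene Kdr at 1.08 among them, and 2, Cldn5 and Rgs5, on wild-type B. All 12 mesenchyme markers and 7 of the 10 vessel markers had a higher mean in the arrays labelled knockout. The part of such cells in the values of Lef1, Fzd6, Frzb, Sfrp2 and Wnt5b was not tested.

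Wnt5a followed another order. It was highest on knockout A, where the mesenchyme and vessel medians were -0.02 and -0.14, and lower on knockout C than on the other arrays labelled knockout. Its lowest value was on wild-type B, where the median of the 10 mitotic genes was -0.57, against -0.10 to 0.27 on the other arrays. Among the arrays labelled knockout the orders differed. The mitotic median was 0.20, -0.10 and 0.27 on knockout A to C, where Wnt5a was 0.86, 0.40 and 0.10. All 10 mitotic genes had a higher mean in the labelled knockout group, their median difference being 0.34, and none was at an unadjusted p under 0.05 in limma. Of the 9 floor plate and V3 markers, tissue that the dissection left out in part, 6 were higher and 3 lower, with 4 of the higher ones (44.4% of the list, against 3.07% of all probe sets) at an unadjusted p under 0.05 in limma. Those 4 were Foxa1 (0.18), Foxa2 (0.22), Spon1 (0.22) and Ferd3l (0.24), while the V3 markers Sim1 (-0.29) and Nkx2-2 (-0.09) were at negative differences. The floor plate medians were 0.02, 0.15 and 0.00 on knockout A, B and C and 0.00, -0.16 and -0.04 on wild-type A, B and C, also lowest on wild-type B. Differentiated neuron markers had 12 of 14 lower, against 12955 of all 28815 probe sets, with a median difference of -0.12. At an unadjusted p under 0.05 in limma there were 2 (14.3%, against 5.57% of all probe sets), both lower. Single arrays weighed here too, with 10 of the 14 highest on wild-type B and 9 lowest on knockout C. The motor neuron markers Isl1, Mnx1 and Chat in this list were at -0.04, 0.00 and 0.09. In bulk tissue fewer cells of a type and less RNA per cell cannot be told apart, and the part of cell makeup in the Wnt5a difference was not tested.

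**Figure D4:**
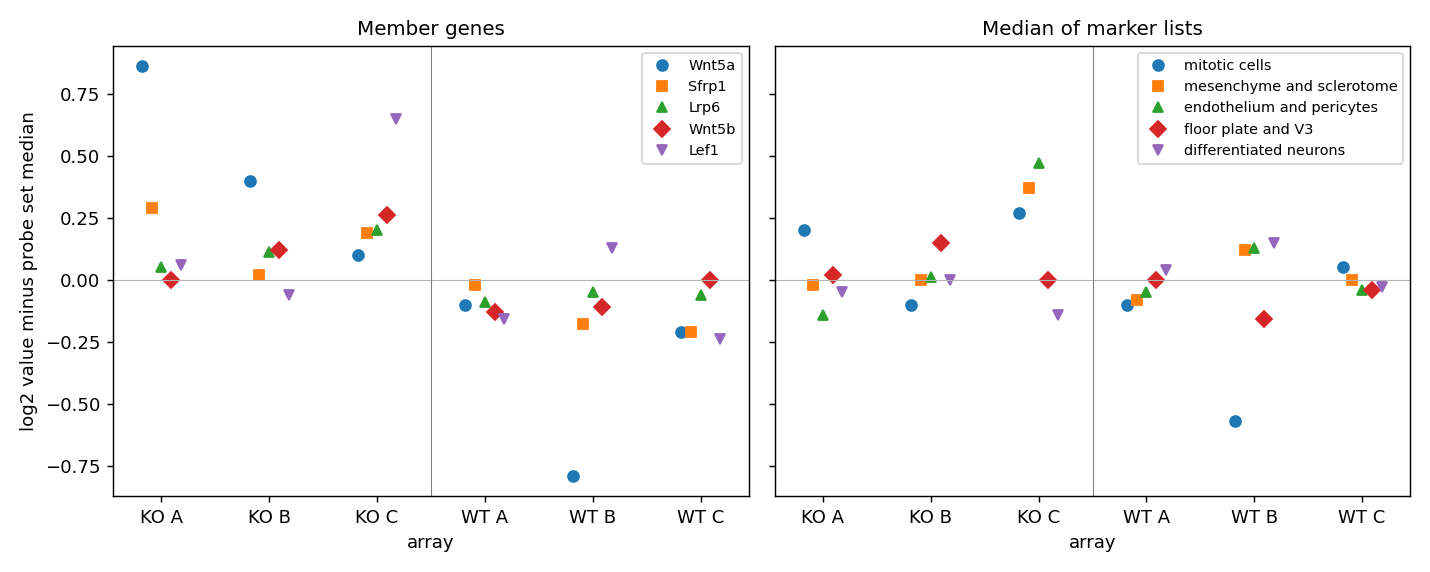
Log2 value minus probe set median (vertical axis) on each array (horizontal axis) for 5 genes (left) and, on the same scale, for the medians of 5 marker lists (right). Lef1 and the mesenchyme and endothelium medians are highest on knockout C (0.65, 0.37 and 0.47). Wnt5a is highest on knockout A (0.86) and, with the mitotic median (-0.57), lowest on wild-type B (-0.79). The mitotic median is highest on knockout C (0.27), where Wnt5a is at 0.10.

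The rest of the pathway was examined with 103 listed genes, of which 100 were measured. Their median difference was 0.01, with 53 higher and 47 lower. At an unadjusted p under 0.05 in limma there were 5 (5%), against 5.57% of all probe sets, 1 higher and 4 lower. Without knockout B there were 14 and without wild-type B 2, while the count over all probe sets moved the same way, from 1605 to 2871 and 977.

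Among the nuclear factors the co-repressor gene Tle4 and its family member Tle5 were lower. Tle4 stood at -0.22, -0.05 and -0.18 on knockout A to C and at 0.08, 0.23 and 0.05 on wild-type A to C, with no overlap and a difference of -0.27 (SE 0.07, unadjusted p = 0.00846 and adjusted p = 0.812 in limma). Tle5 stood at -0.06, -0.02 and -0.13 against 0.02, 0.14 and 0.05, again with no overlap, a difference of -0.14 (SE 0.05). Of the 13 measured Tcf factors and cofactors 8 were higher and 5 lower.

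On the route without beta-catenin, Daam2, a formin that links Dishevelled to actin, stood at -0.05, -0.13 and -0.29 on knockout A to C and at 0.09, 0.10 and 0.05 on wild-type A to C, a difference of -0.24 (SE 0.07) with no overlap, and -0.14 with the Xist term. The Wnt5a receptor genes Ror1, Ror2 and Ryk, named after their values were seen, differed by -0.07 (SE 0.04), 0.10 (SE 0.07) and 0.01 (SE 0.05). Of the 17 planar polarity and noncanonical genes 12 were higher and 5 lower, with a median of 0.01. The list of R-spondins and their receptors held the R-spondins and Lgr genes, which strengthen Wnt signals, and Rnf43 and Znrf3, ubiquitin ligases that remove Frizzled receptors and dampen them. Of its 9 genes 7 were higher, Rnf43 (0.05) and Znrf3 (0.09) among them, and Rspo4 was at 0.17 (SE 0.05) with no overlap. Of the 11 other inhibitors 4 were higher and 7 lower, and Sostdc1 was at -0.21 (SE 0.08).

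Genes of Wnt secretion and release had differences of at most 0.13 in size, and all 6 lay below 0 before rounding. Not all of them had a clear direction. Wls was at 0.00 (SE 0.10), and Gpc3, at -0.11 (SE 0.37), ran from -0.58 on knockout A to 0.88 on knockout C. Porcn, which attaches the lipid to Wnt proteins, was at -0.13 (SE 0.06) and the glypican gene Gpc6 at -0.10 (SE 0.05). Porcn was at -0.061 without wild-type A and Gpc6 at -0.056 without knockout C. The 22 cytoplasmic and destruction complex genes had a median of -0.03 (6 higher, 16 lower), among them Csnk1e at -0.14 (SE 0.07) and Apc2 at -0.21 (SE 0.12), which were -0.081 and -0.07 without knockout C. Feedback and target genes outside Axin2 and Lef1 numbered 20 with a median of 0.03, 14 of them higher. Ccnd2, a cyclin gene, was at 0.36 (SE 0.17) and was 0.63 on knockout C, without which the difference was 0.18, while the inhibitor gene Apcdd1 was at -0.22 (SE 0.14), between -0.37 and -0.14 with single arrays left out. In the norrin and brain vessel list of 7 genes, Tspan12 was at -0.15 (SE 0.09) and Ndp at -0.11 (SE 0.07). Tspan12 was at -0.054 without wild-type B and Ndp at -0.037 without knockout C. No gene of these lists passed the adjusted threshold.

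The precision allowed a bound on most of these genes. The 95% intervals of 42 of the 44 probe sets lay inside 1.5-fold in either direction, against 93.9% of all probe sets. The exceptions were Wnt5a and Lef1. Since the values carry no level, a gene with a narrow interval can be one at a steady level or one whose probes stayed near background, and which of these holds could not be told apart here.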

How the data were processed

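RNA was amplified into sense-strand cDNA, biotin-labelled and hybridised to whole-transcript arrays. The authors deposited log2 values made with RMA, per the submitters' processing notes; the version, settings and genome build are not given in the sources used here, and log base 2 was taken from RMA. Every one of the 28791 complete probe sets had median 0 over the 6 arrays, and 24 lacked wild-type C. Symbols came from the platform annotation (21780 probe sets with 1 symbol, 1605 with several, 5430 with none), 21689 of them matched by Entrez identifier to RefSeq (GRCm38.p6).

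Knockout and wild type were compared with limma 3.58.1 in R 4.3.3 (genotype as the only term, all probe sets, Benjamini-Hochberg adjustment over the table, threshold 0.05). The script was tested on simulated data. Intervals are limma's 95% intervals. Figures used matplotlib 3.10.9. Pathway and marker genes were read from 1 probe set per gene, that with most accessions. The number of arrays limits the precision.

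The members, lists and tests were chosen with earlier results of these data known. Named were members at unadjusted p under 0.05, at a difference of 0.3 or more, the extremes of each class, known cord ligands and inhibitors and the readouts; per pathway list, those at unadjusted p under 0.05 or else the 2 of lowest p. Alternatives were the letter as a block, median centring, quantile normalization, array weights, a robust prior, an Xist term, 1 probe set per gene and leaving out each array.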

Additional observations from a re-analysis of the deposited data

How the results depend on the processing

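Wnt5a, Sfrp1, Lrp6 and Wnt5b kept a positive difference under every alternative run, and no member passed an adjusted p of 0.05 under any. The groups of these genes did not overlap. Leaving out an array, array weights or the Xist term therefore could not turn their sign, and the kept sign is no separate support. With single arrays left out, probe sets past that threshold over the whole table numbered 0 to 5. The 5 were those without knockout A, where label and sex coincided. Probe sets at unadjusted p under 0.05 numbered 977 to 2871. Members under 0.05 numbered 3 to 5 (3 to 5 higher, 0 to 2 lower), other pathway genes 2 to 14, and the ligand median lay between -0.0012 and 0.05. The Xist term sets knockout A alone against the wild type, so it gives no correction for sex across the knockout arrays. With it the differences were 1.23 for Wnt5a, 0.43 for Sfrp1, 0.12 for Lrp6 and 0.082 for Wnt5b. Knockout A was the highest array for Wnt5a and Sfrp1, and the lowest of the labelled knockout for Lrp6 and Wnt5b. The medians with this term were -0.015 for Frizzled genes, -0.08 for inhibitors and 0.025 for co-receptors. That term turned Dkk1 to -0.0041, Frzb to -0.21, Fzd10os to -0.12, Lrp5 to -0.065 and Sfrp2 to -0.11. Quantile normalization put 1 member, Fzd10, under 0.05 as lower, and array weights turned Sfrp2 to -0.018. Ranges with single arrays left out that crossed 0 were -0.054 to 0.18 for Frzb, -0.052 to 0.11 for Fzd10os, -0.074 to 0.093 for Sfrp2, -0.001 to 0.08 for Wnt1, -0.0034 to 0.11 for Wnt4 probe set 10509273, -0.0041 to 0.096 for Wnt7a and -0.031 to 0.11 for Wnt7b. The cause of these changes was not tested. Of 454 single-gene values under alternatives, 436 kept their direction, and none passed an adjusted p of 0.05 in limma. The letter block, the robust prior and 1 probe set per gene leave each difference as it is, so their values could not turn.

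Same-letter deviations from group means correlated at 0.165, 0.216 and 0.016 for A, B and C. Knockout A and B each correlated best with the wild type of their own letter, and negatively across A and B (-0.182 and -0.187). Deviations sum to 0 within each group, so positive values force negative ones elsewhere, and the negative values are no separate evidence. Knockout C correlated best with wild-type A (0.028). Whether arrays of the same letter were handled together was not tested. With the letter as a replicate block, 2552 probe sets and 9 other pathway genes were under 0.05, and the same 4 members. A filter on low values could not be run, since the centred values hold no level. Signal over background could not be seen.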
